A study of Mus musculus with 38 samples.

Results

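The stefin A cluster is a run of small cysteine protease inhibitor genes on mouse chromosome 16. Its 5 members here, Stfa1, Stfa2, Stfa3, Stfa2l1 and Csta1, were taken by gene symbol from the 49585 genes listed in each of the 4 expression tables of a study of the splicing factor gene Srsf2 in mouse skin. In whole back skin members rose in both genetic models, after deletion of Srsf2 and in mice with the P95H mutation of Srsf2 at 12 and 28 days. In the deletion model Stfa1, Stfa2, Stfa3 and Csta1 passed the test at 10 days, but none did without 1 control mouse. At 12 days Stfa1 (52.3-fold) and Stfa3 (16.4-fold) passed, and Stfa1 did so with any library left out. Stfa1, Stfa2 and Stfa3 rose many-fold and Csta1 by less than 2-fold. Stfa2l1 was at or near the lowest value the tables hold in nearly every library.

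The knockout set of whole back skin held Krt14-CreER positive SRSF2-KO mice treated for 4, 10 and 12 days, with 3 mice at each time, and 3 Cre-negative controls that carry the Srsf2 KO allele, 2 treated for 12 days and 1 for 10 days. The P95H set held 2 Cre-positive SRSF2-P95H mice and 5 Cre-negative controls at 12 days, and 4 SRSF2-P95H mice and 3 Cre-negative controls at 28 days, all controls carrying the mutant allele. Krt14-CreER is a tamoxifen-activated recombinase driven by the keratin 14 promoter, so the allele is targeted in basal keratinocytes while the whole tissue is sequenced. All whole-skin mice, controls included, had 4-hydroxy tamoxifen put on the skin every other day. The mice of the knockout set are wild type, heterozygous or homozygous for the tdTomato reporter, unevenly over the groups, and those of the P95H set are wild type for it. Reporter-positive cells were sorted from the skin of 3 SRSF2-KO and 3 control mice after 10 days of 4-hydroxy tamoxifen. They were also sorted from 3 SRSF2-P95H heterozygous and 3 control mice given 3 tamoxifen injections and DMBA/TPA, a mutagen followed by a tumour promoter, at 20 weeks. The sources used here give neither the ages of the mice nor the Cre status of the sorted controls.

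Stefins are cytosolic cystatins without a signal peptide. They bind papain-like cysteine proteases such as cathepsins B, H, L and S reversibly and block the active site. Humans have a single stefin A gene, CSTA, whose protein is found in the upper epidermis and is cross-linked into the cornified envelope, whereas in the mouse the gene has been copied in tandem. Mouse stefin A transcripts are known from neutrophils as well as from the epidermis.

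In GENCODE M21 (build GRCm38) all 5 members are protein-coding genes whose longest transcript has 3 exons. Csta1 lies on the minus strand at chr16:36119946-36131241 and Stfa2l1 on the plus strand at chr16:36156811-36161953. Stfa1 follows on the plus strand at chr16:36276951-36285373. Stfa2, at chr16:36403992-36408457, and Stfa3, at chr16:36450537-36455392, are both on the minus strand. The annotated transcripts are close copies: those of Stfa2 and Stfa2l1 were identical at 96.0% of 373 aligned bases, and that of Stfa1 matched the neighbouring gene BC100530 at 97.1% of 617 bases. Of the overlapping 50-base windows along each transcript, 26.9% had an exact copy in another annotated gene for Stfa1, 24.6% for Stfa2l1, 15.9% for Stfa2 and 0.8% for Csta1, and none for Stfa3. The sources used here do not say how the authors' counting treated reads that match several copies, so the values of Stfa1, Stfa2 and Stfa2l1 are uncertain in that respect, and those of Stfa3 the least so.

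The 5 genes also share sequence before their start sites. The windows below run from 150 bases upstream to the base before the RefSeq start (build GRCm38.p6), each 5′ to 3′ on the strand of its gene. They are shown to compare the sequence before the genes that rose in skin with that before Stfa2l1, which was hardly detected, and Csta1, which changed the least. Capitals mark the blocks ACTCAGCATTTCC and TTTAAAA.
Stfa1: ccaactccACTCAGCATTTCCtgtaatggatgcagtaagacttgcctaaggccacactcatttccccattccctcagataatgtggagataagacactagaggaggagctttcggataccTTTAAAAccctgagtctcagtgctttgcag
Stfa2: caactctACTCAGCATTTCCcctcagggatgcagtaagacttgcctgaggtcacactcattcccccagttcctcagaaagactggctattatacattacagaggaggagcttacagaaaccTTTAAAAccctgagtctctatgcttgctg
Stfa3: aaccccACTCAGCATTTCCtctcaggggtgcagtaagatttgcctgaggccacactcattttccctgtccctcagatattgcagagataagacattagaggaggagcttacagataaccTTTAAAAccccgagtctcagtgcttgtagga
Stfa2l1: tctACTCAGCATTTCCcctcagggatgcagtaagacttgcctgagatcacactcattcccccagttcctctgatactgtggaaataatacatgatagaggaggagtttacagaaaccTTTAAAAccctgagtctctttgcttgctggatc
Csta1: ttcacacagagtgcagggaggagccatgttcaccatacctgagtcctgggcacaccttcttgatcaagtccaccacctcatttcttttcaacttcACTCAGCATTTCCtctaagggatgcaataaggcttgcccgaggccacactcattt

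These windows lie at chr16:36276998-36277147 for Stfa1, chr16:36408364-36408513 for Stfa2, chr16:36455393-36455542 for Stfa3, chr16:36156661-36156810 for Stfa2l1 and chr16:36131190-36131339 for Csta1. GENCODE M21 places the starts of Stfa1, Stfa2 and Csta1 further upstream, so in that annotation the whole Stfa1 window, with both capitalised blocks, and part of the Stfa2 and Csta1 windows lie inside the gene. The block ACTCAGCATTTCC is the longest run of bases found in all 5 windows. On either strand it occurred in 9 of 32851 RefSeq promoter windows of 250 bases, or 0.0274%, and all 9 are on chromosome 16: the 5 members, Csta3, Cstdc3, Cstdc5 and Gm7260. It begins 142 to 147 bases before the start in Stfa1, Stfa2, Stfa3 and Stfa2l1, and 55 bases before it in Csta1. The block TTTAAAA began 29 to 33 bases before the start in Stfa1, Stfa2, Stfa3 and Stfa2l1, was not found in the Csta1 window, and occurred in 8.1% of all promoter windows. The letters TGAGTC, present in 12.1% of all promoter windows, occurred in those of Stfa1, Stfa2, Stfa2l1 and Csta1. These blocks were picked after the sequences were read, and they are descriptions of the sequence only.

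Depth per library in M reads (reads in units of 1e6) was estimated at 24.94 to 36.79 for knockout-set skin and 7.373 to 32.16 for P95H-set skin. It was 45.93 to 92.76 for the knockout sort and 10.98 to 17.24 for the DMBA/TPA sort. Levels in whole skin are given in steps, the whole-number unit of the deposited tables, in which a gene with no reads stands at 1 step. Levels in sorted cells are the deposited normalised counts. Srsf2 itself averaged 2973 ± 941 normalised counts in sorted SRSF2-KO cells and 18782 ± 1602 in sorted control cells (SD, n = 3 each), a log2 change of -2.71 (limma adjusted p = 0.043). By edgeR on the recovered reads the change was -2.66 and fell short of the threshold (adjusted p = 0.0555). In whole SRSF2-KO skin its log2 change from control was -0.15 at 4 days, 0.15 at 10 days and -0.28 at 12 days, and none passed the test. A point mutation such as P95H leaves the transcript level with no bearing on the label. Sorted SRSF2-KO replicate 2 stood apart, with a total of 157.3 M normalised counts against 54.89 M normalised counts in the lowest library of that table. Krt14, which marks basal keratinocytes, was at or above 346350 normalised counts in every library of the knockout sort.

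In SRSF2-KO skin the cluster was higher at the later times. At 4 days 0 of the 4 members tested were higher than in control skin and Csta1 was lower, at 10 days all 4 were higher, and at 12 days Stfa1 and Stfa3 were higher. Over all 19450 genes tested, 7.21% were called higher and 4.12% lower at 4 days, 13.3% higher at 10 days and 0.823% higher at 12 days, and 16%, 22% and 11.8% were non-overlapping upward. The calls are limma tests on log2(steps + 1), adjusted over all genes by the Benjamini-Hochberg method, and fold changes are on that scale. The 3 time points share the same 3 control mice. None of these was treated for 4 days, so in every 4-day comparison genotype and length of treatment cannot be told apart. In whole tissue, more cells that express a gene and more RNA per cell cannot be told apart.

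**Figure D1:**
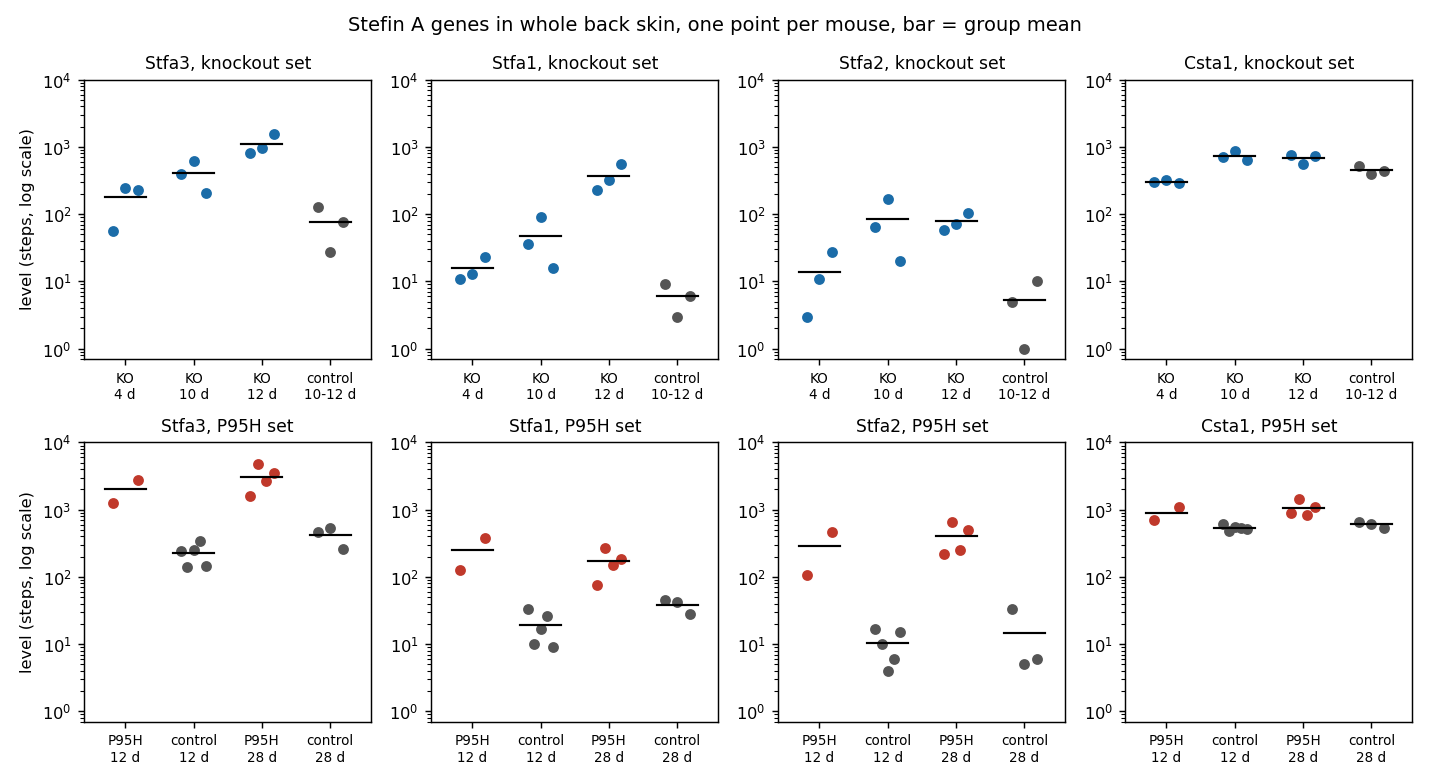
Level in steps (log scale) of 4 stefin A genes in each whole-skin library of the knockout set (top) and the P95H set (bottom), with points for mice and a bar for the group mean. Stfa3 reached 813 to 1544 steps in SRSF2-KO skin at 12 days and 1614 to 4717 steps in SRSF2-P95H skin at 28 days, above every control of its set, and Csta1 moved the least.

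Stfa3 stood at 56, 249 and 228 steps in SRSF2-KO skin at 4 days, 399, 611 and 204 steps at 10 days and 813, 963 and 1544 steps at 12 days, against 127, 27 and 76 steps in control skin. All 6 knockout mice at 10 and 12 days were above all 3 controls, whereas the 4-day mouse with 56 steps lay within the control range. Its change was 2.28-fold at 4 days (adjusted p = 0.274), 5.67-fold at 10 days (adjusted p = 0.0206) and 16.4-fold at 12 days (adjusted p = 0.0195).

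Stfa1 had 11, 13 and 23 steps at 4 days, 36, 92 and 16 steps at 10 days and 226, 317 and 555 steps at 12 days in SRSF2-KO skin, against 9, 3 and 6 steps in control skin. No knockout library overlapped the controls, and the 12-day mice were all above the 10-day mice. The rise was 5.93-fold at 10 days (adjusted p = 0.0125) and 52.3-fold at 12 days (log2 5.71 ± 0.58, SE, adjusted p = 0.00206), and at 4 days the 2.43-fold difference did not pass (adjusted p = 0.185). Stfa1 ranked 11th of 19450 genes by size of rise at 12 days. Between 10 and 12 days the level rose 8.82-fold (adjusted p = 0.00233), in a contrast in which 19.2% of all genes were called higher. Stfa1 was the single member called there, and 26% of all genes were non-overlapping upward between those times.

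Among the 3 times, Stfa2 was called higher than control at 10 days alone. It stood at 3, 11 and 27 steps at 4 days, 64, 169 and 20 steps at 10 days and 59, 71 and 105 steps at 12 days in SRSF2-KO skin, against 5, 1 and 10 steps in control skin. The 10-day and 12-day mice overlapped each other and were all above the controls. The rise from control was 12.1-fold at 10 days (adjusted p = 0.0148), and at 12 days the 15.1-fold difference fell just short of the threshold (adjusted p = 0.0518). Between 10 and 12 days the log2 difference was 0.33, with a 95% interval of -1.56 to 2.21 (adjusted p = 0.787).

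Csta1, the mouse gene closest in name to human CSTA, changed by the smallest fold of the 4 from control at each time. It had 296, 319 and 286 steps at 4 days, 710, 880 and 635 steps at 10 days and 750, 560 and 734 steps at 12 days in SRSF2-KO skin, against 524, 398 and 444 steps in control skin. All 4-day mice were below the controls, as for 13.4% of all genes, and all later mice were above them. Csta1 fell by 0.59 on the log2 scale at 4 days (adjusted p = 0.0366), rose 1.62-fold at 10 days (adjusted p = 0.0128) and was 1.49-fold higher, short of the threshold, at 12 days (adjusted p = 0.0894). From 4 to 10 days it rose 2.44-fold (adjusted p = 0.000176), and Stfa2 rose 5.57-fold (adjusted p = 0.0391), in a contrast in which 18.9% of all genes were called higher.

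Stfa2l1 had 1 or 2 steps in all 12 libraries of the knockout set, which is 0 or about 1 read, and was below the level tested in every table.

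The 10-day calls rest in part on 1 control mouse, the one with the lowest values for Stfa1, Stfa2, Stfa3 and Csta1: without control replicate 2 none of the 4 members was called at 10 days (adjusted p = 0.0568 to 0.085), with log2 changes of 0.61 to 2.92. Without SRSF2-KO replicate 2 at 10 days Stfa1 and Csta1 were called, and without replicate 1 Stfa3 was not (adjusted p = 0.0535). The rise of Stfa2 from 4 to 10 days was lost without replicate 1 or 2 of either time. At 12 days the call for Stfa3 was lost without knockout replicate 1 or 3 or control replicate 2 or 3, while Stfa1 was called in each such fit (adjusted p at most 0.0148). The Csta1 call at 4 days was lost without knockout replicate 1 or 3 or control replicate 1 or 3, and with the deposited values (adjusted p = 0.154). Hair shaft genes moved with the 10-day group: their summed level was 3169050 to 4219090 steps at 10 days, against 2863 to 157511 steps in control skin. The part of this shift in the 10-day values of the stefin genes was not tested; in libraries rescaled to the same total, Csta1 no longer passed at 10 days (log2 0.38, adjusted p = 0.086).

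In SRSF2-P95H skin all 4 members tested were higher than in control skin at both times, and no SRSF2-P95H library overlapped a control of its time for any of them. Of the 18311 genes tested, 3.96% were called higher at 12 days and 6.7% at 28 days, and 13.7% and 14.5% were non-overlapping upward. Stfa2 rose the most of the members in each, by 22.1-fold at 12 days and 32.6-fold at 28 days, and ranked 4th and 3rd among all genes by size of rise.

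Stfa2 had 108 and 466 steps in SRSF2-P95H skin at 12 days, against 17, 10, 4, 6 and 15 steps in control skin. At 28 days it had 220, 646, 249 and 506 steps in SRSF2-P95H skin, against 33, 5 and 6 steps in control skin. The lowest mutant library was thus several times above the highest control at either time (log2 4.47 ± 0.72 and 5.03 ± 0.66, SE, adjusted p = 0.00193 and 0.000458).

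Stfa3 had 1256 and 2777 steps in SRSF2-P95H skin at 12 days, against 245, 139, 249, 344 and 145 steps in control skin. At 28 days it had 1614, 4717, 2650 and 3461 steps in SRSF2-P95H skin, against 472, 538 and 257 steps in control skin. The rise was 8.79-fold at 12 days (adjusted p = 0.000885) and 7.16-fold at 28 days (adjusted p = 0.00073), with the mutant mice spread over 2.21-fold and 2.92-fold.

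Stfa1 had 128 and 378 steps in SRSF2-P95H skin at 12 days, against 33, 10, 17, 26 and 9 steps in control skin. At 28 days it had 77, 271, 151 and 183 steps in SRSF2-P95H skin, against 46, 42 and 28 steps in control skin. Both mutant groups lay above their controls, by 12.4-fold at 12 days (adjusted p = 0.00112) and 4.02-fold at 28 days (adjusted p = 0.0179). The 28-day effect minus the 12-day effect was -1.62 in log2 (95% interval -3.18 to -0.07), which did not pass the correction over all genes (adjusted p = 0.584). None of the 4 members was called in that test, in which 0.0109% of all genes were called higher and 0% lower; 1 member, Stfa1, had an unadjusted p below 0.05, as did 8.21% of all genes.

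Csta1 had 703 and 1079 steps in SRSF2-P95H skin at 12 days, against 609, 480, 543, 542 and 509 steps in control skin. At 28 days it had 888, 1440, 847 and 1101 steps in SRSF2-P95H skin, against 658, 610 and 540 steps in control skin. The groups did not overlap, and the rises were 1.63-fold (adjusted p = 0.0385) and 1.74-fold (adjusted p = 0.0101).

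Stfa2l1 was at 1 step in 13 of the 14 libraries of the P95H set. The exception, SRSF2-P95H replicate 2 at 12 days with 7 steps or about 5 reads, had the higher value of the 2 mutant mice for each other member too. With only 2 mutant mice at 12 days, leaving out that mouse left Stfa1 and Stfa3 called and Stfa2 at a log2 change of 3.42 (adjusted p = 0.0693). That fit has 1 mutant library at 12 days, which is assumed to vary like the other groups. The 12-day call for Csta1 was also lost without control replicate 2, 3, 4 or 5 and with the deposited values (log2 0.60, adjusted p = 0.9999). At 28 days Stfa1 lost its call without mutant replicate 2 or control replicate 4, and Csta1 lost its call without control replicate 4.

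**Figure D2:**
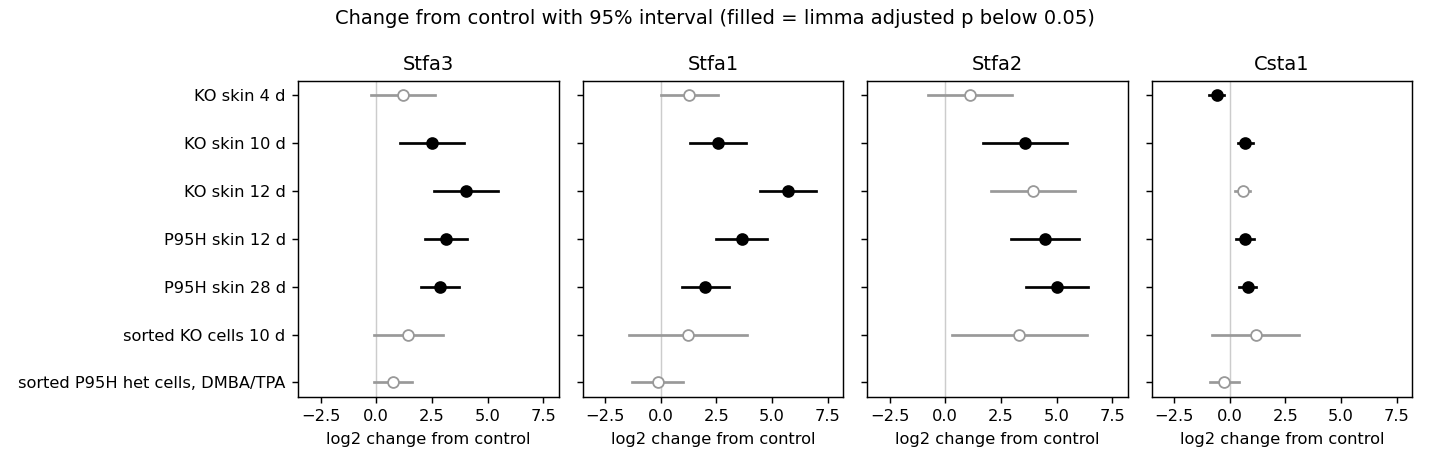
Log2 change from control of 4 stefin A genes with 95% intervals in each comparison, where filled points passed the limma test (adjusted p below 0.05). Stfa1, Stfa2 and Stfa3 lie far right of 0 in SRSF2-KO skin at 10 and 12 days and in SRSF2-P95H skin, and the sorted cells have wide intervals; Stfa2 was below the level tested after DMBA/TPA.

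The share of each member in the summed level varied with the group. On a scale of steps above 1 per kilobase of exon, Stfa3 and Csta1 were alike in control skin of the knockout set, with a median of 182 and 159 and overlapping ranges, while Stfa1 and Stfa2 had medians of 7.04 and 8.49. In SRSF2-KO skin at 12 days the order was Stfa3 with a median of 2335, Stfa1 with 445, Csta1 with 263 and Stfa2 with 149, where the last 2 overlapped. In SRSF2-P95H skin at 28 days it was Stfa3 with 7414, Stfa2 with 799, Csta1 with 357 and Stfa1 with 234, where Stfa2 overlapped Csta1 and Csta1 overlapped Stfa1. Stfa3 made up 73.5% to 74.7% of the summed per-kilobase level in SRSF2-KO skin at 12 days, against 30.3% to 59.6% in control skin. It made up 81.5% to 86.1% in SRSF2-P95H skin at 28 days, against 71.9% to 82.1% in control skin. The exon length of Csta1, 2783 bases, includes a long last exon, and its per-kilobase level would be higher if the short transcript prevails.

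Which of Stfa1 and Stfa2 was higher varied with the group. On the log2(level + 1) scale, the level of Stfa1 minus that of Stfa2 was -0.81, -0.87 and -0.30 in SRSF2-KO skin at 10 days and 1.92, 2.14 and 2.39 at 12 days, against 0.74, 1.0 and -0.65 in control skin. All 12-day knockout mice were on the Stfa1 side, and above every control. In SRSF2-P95H skin at 28 days it was -1.503, -1.25, -0.72 and -1.46, against 0.47, 2.84 and 2.05 in control skin, so that every mutant mouse was on the Stfa2 side and every control on the Stfa1 side. At 12 days the values were 0.24 and -0.30 in SRSF2-P95H skin, within the range of -0.68 to 1.95 in control skin. This difference was chosen after its values were seen and is given without a test, and low control values of 1 to 10 steps make it imprecise there. The Stfa1 and Stfa2 transcripts were identical at 80.8% of their aligned bases, and each shares stretches with other copies, so part of either value can belong to a neighbour.

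**Figure D3:**
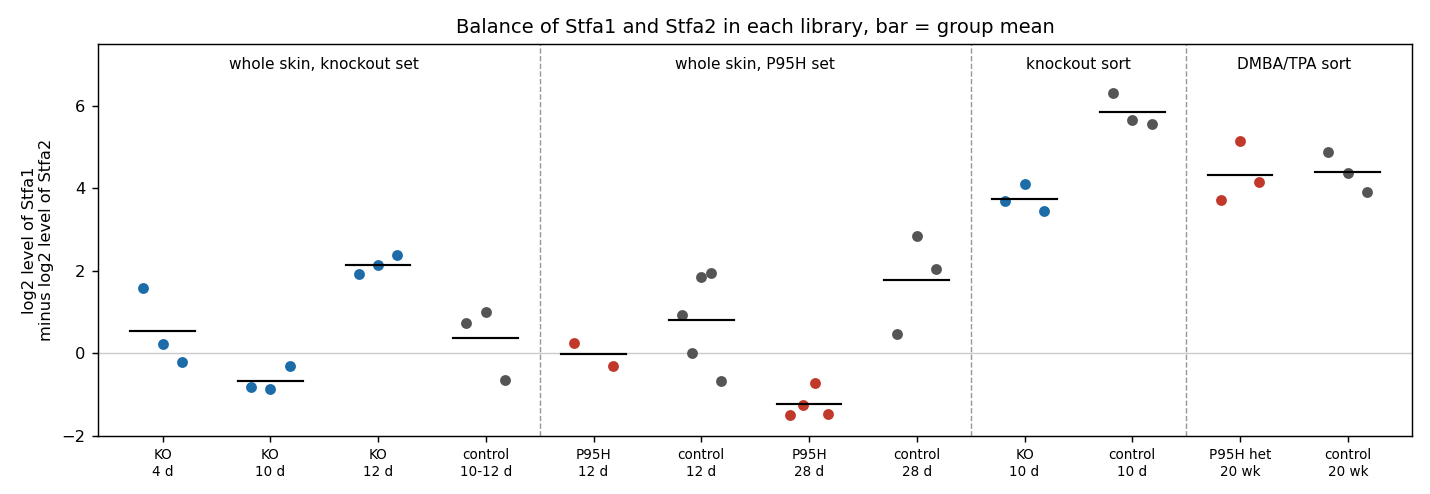
Log2 level of Stfa1 minus log2 level of Stfa2 in every library (steps in whole skin, normalised counts in sorted cells), with points for mice and a bar for the group mean. In whole skin the SRSF2-KO mice at 12 days lie at 1.92 to 2.39 and the SRSF2-P95H mice at 28 days at -1.503 to -0.72, on opposite sides of 0.

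In sorted reporter-positive cells 0 of the 4 members tested passed between SRSF2-KO and control mice, where 0.0282% of 17744 genes were called higher, and the 3 knockout mice differed widely. Only Stfa2 was non-overlapping, as were 12.8% of all genes in that direction, and 1 member, again Stfa2, had an unadjusted limma p below 0.05, as did 17.2% of all genes. By edgeR on the recovered reads the count of members called was also 0, out of 3 genes called in all, but all 4 members had an unadjusted p below 0.05. The edgeR log2 changes were larger, at 2.59 for Stfa1, 4.95 for Stfa2, 1.84 for Stfa3 and 1.90 for Csta1, with adjusted p of 0.153 to 0.274.

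Stfa1 had 5377, 134 and 716 normalised counts in sorted SRSF2-KO cells, against 319, 392.3 and 326 in sorted control cells. Stfa3 had 6199, 907 and 1559 normalised counts in sorted SRSF2-KO cells, against 1154, 717 and 537 in sorted control cells. For each, replicate 1 was far above the controls and replicate 2 was within or below their range. The log2 change was 1.22 for Stfa1 (95% interval -1.41 to 3.85, adjusted p = 0.585) and 1.43 for Stfa3 (95% interval -0.11 to 2.98, adjusted p = 0.318). Without knockout replicate 1 the Stfa1 change turned to -0.15.

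Stfa2 had 417, 6.85 and 65.1 normalised counts in sorted SRSF2-KO cells, against 3.03, 6.75 and 5.99 in sorted control cells. Replicate 2 exceeded the highest control by a fraction of a read, at 2 reads in all. The 9.98-fold difference did not pass (adjusted p = 0.261), and without replicate 2, the library that stands apart, it passed (log2 4.79, adjusted p = 0.0408). Csta1 had 1606, 113 and 374 normalised counts in sorted SRSF2-KO cells, against 222, 134 and 205 in sorted control cells, a log2 change of 1.16 (adjusted p = 0.497). Stfa2l1 had 5 reads in knockout replicate 1 and 0 in the other 5 libraries of that sort.

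The order of the knockout mice was the same for Stfa1, Stfa2, Stfa3 and Csta1, with replicate 1 highest and replicate 2 lowest. The summed level of 33 genes of wounded and stressed keratinocytes was 573538, 290164 and 178641 normalised counts in sorted SRSF2-KO cells. In sorted control cells it was 175416, 154959 and 228928. Knockout replicate 3 was the lowest of the knockout mice on this scale. Knockout replicate 2 had a total of 157.3 M normalised counts, against 58.3 M in replicate 3, so its place in that order depends on the scaling. The summed level of 25 neutrophil markers was 33220, 1075 and 3609 normalised counts in sorted SRSF2-KO cells, against 629, 1046 and 456 in sorted control cells, and its order over the knockout mice was that of the stefin genes. The 7 of these markers that were measured had a median log2 change of 3.09, and none was called. S100a8 ranged over 75.3 to 11569 normalised counts in sorted SRSF2-KO cells, against 5.99 to 163 in sorted control cells, and Lcn2 over 497 to 7711, against 34.2 to 292. The highest value of each belongs to replicate 1 and is part of its neutrophil sum of 33220. S100a8 and S100a9 are also on the list of wounded and stressed keratinocytes, so the 2 sums share genes. Camp, Ngp and Ly6g, from the neutrophil list, were at 0 to 0.711 normalised counts in sorted SRSF2-KO cells. The part of neutrophils in the sorted stefin levels was not tested. The log2 level of Stfa1 minus that of Stfa2 was 3.44 to 4.10 in sorted SRSF2-KO cells, against 5.55 to 6.31 in sorted control cells, so the 2 groups did not overlap. Stfa2 had 4 to 10 reads in sorted control cells and 2 reads in the lowest knockout library. The difference is therefore imprecise, and it was not tested.

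**Figure D4:**
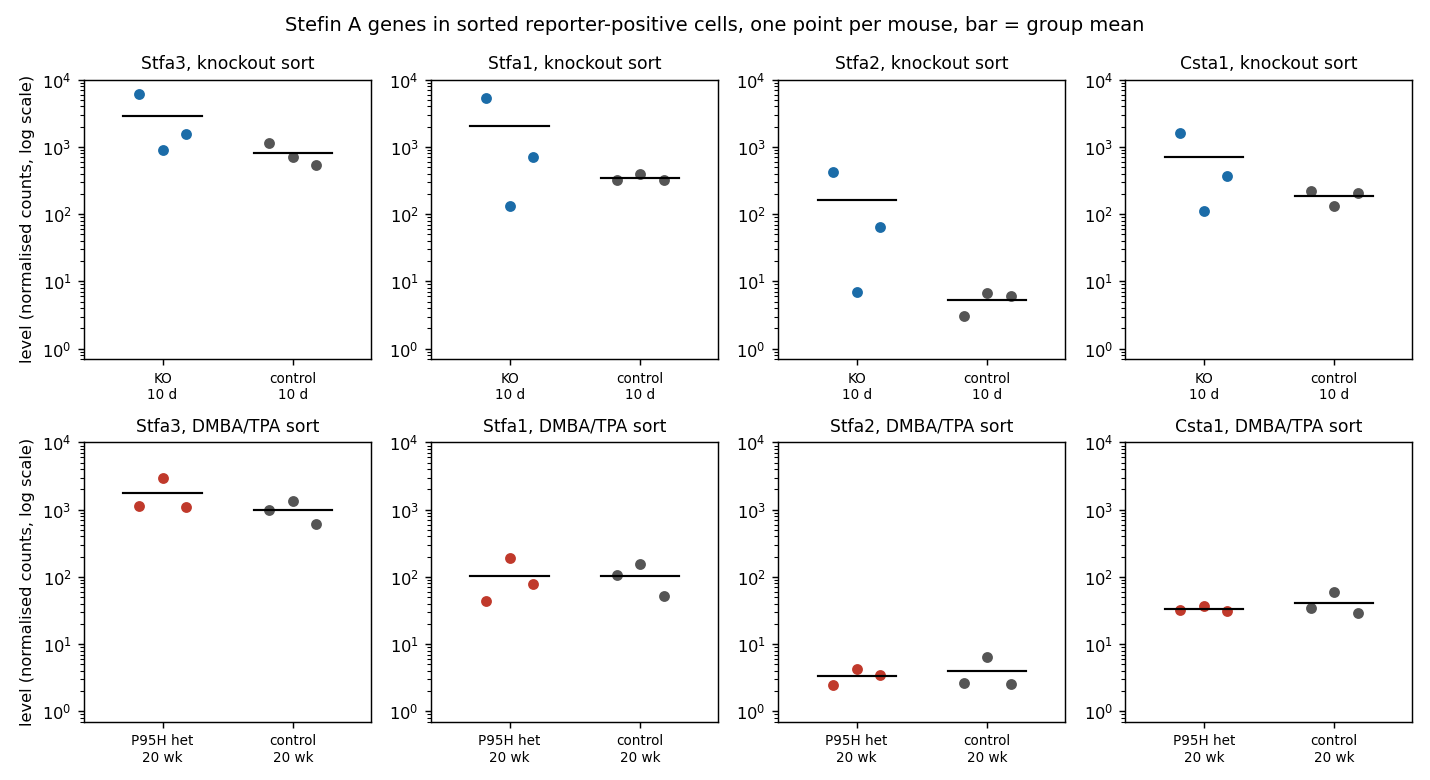
Level in normalised counts (log scale) of 4 stefin A genes in each sorted library, with the knockout sort on top and the DMBA/TPA sort below, points for mice and a bar for the group mean. Sorted SRSF2-KO replicate 1 is the highest library for all 4 genes, with 5377 normalised counts of Stfa1, and the DMBA/TPA groups overlap for all 4.

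After DMBA/TPA, 0 of the 3 members tested passed, in a comparison in which limma called 0% of 14914 genes in either direction and edgeR called 1 gene; 0 members had an unadjusted p below 0.05, against 15.9% of all genes. Stfa3 had 1150, 2995 and 1079 normalised counts in SRSF2-P95H heterozygous cells, against 979, 1334 and 603 in control cells, with overlapping groups and a log2 difference of 0.75 (95% interval -0.11 to 1.60, adjusted p = 0.37). Stfa1 had 44.4, 188 and 77.1 normalised counts in SRSF2-P95H heterozygous cells, against 106, 155 and 52.6 in control cells. Its log2 difference of -0.14 had a 95% interval of -1.28 to 0.99. Csta1 had 32.0, 37.2 and 30.8 normalised counts in SRSF2-P95H heterozygous cells, against 34.6, 60.3 and 29.3 in control cells, with a log2 difference of -0.24 and a 95% interval of -0.89 to 0.41. Stfa2 had 2 to 5 reads in SRSF2-P95H heterozygous cells and 2 to 7 reads in control cells. Stfa2l1 had 0 reads in all 6 libraries, which allows up to 3 reads in each, counting error only.

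Neighbouring genes of the same locus rose too. BC100530, a stefin-like gene whose transcript is nearly a copy of Stfa1, had 309, 785 and 71 steps in SRSF2-KO skin at 10 days and 730, 808 and 1945 steps at 12 days, against 46, 6 and 37 steps in control skin. It rose 11.2-fold at 10 days (adjusted p = 0.0226) and 45.2-fold at 12 days (adjusted p = 0.0223). In SRSF2-P95H skin it rose 30.6-fold at 12 days (adjusted p = 0.000172) and 11.7-fold at 28 days (adjusted p = 0.000703). BC117090 rose 17.0-fold and 11.6-fold in SRSF2-P95H skin at 12 and 28 days, and Gm5416 rose 7.57-fold at 12 days. Gm5416 had 13 and 71 steps in the SRSF2-P95H mice at 12 days, against 2 to 5 steps in control skin. It reached the mean of 10 steps needed for the test only through the mutant mice, so its call is not independent of that filter. Of the 12 neighbours listed, only 5 were present in the data under those symbols. In the knockout set 2 were measured, of which 1 was called higher at 10 and at 12 days, as were 13.3% and 0.823% of all genes. In the P95H set 3 were measured, of which 3, Gm5416 among them, were called higher at 12 days and 2 at 28 days. Over all genes 3.96% and 6.7% were called higher at those times. BC100530 and BC117090 share exact stretches with Stfa1, so their values are not independent of those above.

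Among 6 other cystatins measured, Cst6, a secreted cystatin of the epidermis that inhibits legumain and cathepsins, moved most often. It fell by 1.34 on the log2 scale in SRSF2-KO skin at 4 days (adjusted p = 0.00824) and rose 2.11-fold at 10 days (adjusted p = 0.0102), which is the direction of Csta1 at both times. It rose 1.68-fold and 1.95-fold in SRSF2-P95H skin at 12 and 28 days. Cstb, which encodes stefin B, rose 2.14-fold in SRSF2-KO skin at 10 days and 1.77-fold and 1.497-fold in SRSF2-P95H skin at 12 and 28 days. Fetub, a cystatin-family gene known from liver, rose 10.1-fold in SRSF2-P95H skin at 12 days, with a large spread between the 2 mice (89.5 ± 87.0 steps, SD, n = 2, against 6.8 ± 5.8 steps in control skin, n = 5). At 12 days none of the other cystatins was called in SRSF2-KO skin.

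Cathepsins of the papain-like family that stefins bind, and legumain, were called higher in SRSF2-KO skin mainly at 4 days. Of 11 papain-family cathepsins and legumain, 7 were called higher in SRSF2-KO skin at 4 days, as were 7.21% of all genes. They were Ctsb, Ctsc, Ctsh, Ctso, Ctss, Ctsz and Lgmn. No stefin A gene was called higher then, though Stfa1, Stfa2 and Stfa3 were 2.43-fold, 2.17-fold and 2.28-fold above control, short of the threshold. Ctss, the cathepsin of antigen-presenting cells, averaged 5255 ± 1654 steps at 4 days and 1909 ± 417 steps in control skin (SD, n = 3 each), a 2.70-fold rise (adjusted p = 0.0212). All 12 macrophage markers were higher at that time too, with a summed level of 104880 to 193052 steps against 39987 to 62371 steps in control skin, and all 7 fibroblast markers were higher, with a summed level of 1529710 to 3193850 steps against 355703 to 827141 steps in control skin. Of the basal keratinocyte markers 1 of 7 was lower (median log2 -0.45), and of the cornified layer genes 4 of 32 were lower (median log2 -0.33). The part of these shifts in the protease levels, and in the lower Csta1 and Cst6 at 4 days, was not tested. At 10 days, when all 4 stefin A genes were higher, Ctsl rose 2.23-fold (adjusted p = 0.0104), Ctso fell by 0.67 on the log2 scale (adjusted p = 0.0208), and the other 9 were not called. At 12 days 0 of the 11 were called in SRSF2-KO skin. In SRSF2-P95H skin Ctsh rose 1.28-fold at 12 days and 1.35-fold at 28 days and Ctss 1.96-fold at 12 days.

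Many genes of wounded and stressed keratinocytes were called higher at the times at which stefin genes were. Of 30 measured in the knockout set, 1 was higher and 2 lower at 4 days, 21 higher and 1 lower at 10 days, and 12 higher at 12 days, with a median log2 change of 0.57, 2.56 and 3.29, against -0.01, -0.02 and 0.00 over all genes. The 4 stefin A genes had a median of 1.15, 2.54 and 3.98. The summed level of the wound genes was 16584 to 29217 steps at 4 days, 130076 to 304691 steps at 10 days and 41083 to 206703 steps at 12 days in SRSF2-KO skin, against 37045 to 62714 steps in control skin. It was thus below every control at 4 days, above every control at 10 days and overlapping at 12 days. Of 27 measured in the P95H set, 13 were higher at 12 days and 19 at 28 days, and none was lower. Gsdmc, which encodes a pore-forming gasdermin, rose 63.3-fold in SRSF2-KO skin at 12 days (adjusted p = 0.00206), and Serpinb3a, a serpin, rose 40.6-fold in SRSF2-P95H skin at 12 days (adjusted p = 2.77e-05). Of 32 cornified layer genes, 11 were higher and 6 lower in SRSF2-KO skin at 10 days and 0 were called at 12 days, when 0.823% of all genes were called higher. In SRSF2-P95H skin 9 were higher and 2 lower at 12 days, and 21 higher and 1 lower at 28 days.

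Some neutrophil markers were higher as well. Of 25 listed, 11 were measured in the knockout set. At 4 days 1 was higher, Csf3r (2.75-fold, limma adjusted p = 0.021), where 7.21% of all genes were called higher. From 4 to 10 days 2 of the 11 were called higher and 3 lower, where 18.9% of all genes were called higher. Csf3r was among those lower (log2 -1.23, limma adjusted p = 0.013). At 10 days 2 were higher, Padi4 and S100a8, and 1, Mmp9, was lower, where 13.3% of all genes were called higher. At 12 days 3 were higher, against 0.823% of all genes. Those 3 were Cxcr2, a chemokine receptor (5.88-fold), and S100a8 and S100a9 (15.99-fold and 25.8-fold), which stressed keratinocytes also make and which are on both lists. In the P95H set 3 of 10 measured were higher at each time, against 3.96% and 6.7% of all genes. They were Lcn2, Cxcr2 and Csf3r at 12 days, and Cxcr2, Il1f9 and Padi4 at 28 days. The median log2 change over those measured was 0.34 at 4 days, 0.43 at 10 days and 1.38 at 12 days in SRSF2-KO skin. In SRSF2-P95H skin it was 1.17 at 12 days and 1.07 at 28 days.

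The summed level of the 25 markers was 5924 to 7731 steps at 10 days and 4278 to 4754 steps at 12 days in SRSF2-KO skin, against 1964 to 2854 steps in control skin. Padi4, a protein-arginine deiminase gene, held 4648 to 5153 steps of the 10-day sum, against 377 to 1387 steps in control skin, and was at 282 to 628 steps in SRSF2-KO skin at 12 days. In SRSF2-P95H skin the sum was 1693 to 3296 steps at 12 days, against 996 to 1308 steps in control skin, and 2036 to 3203 steps at 28 days, against 1011 to 1213 steps in control skin. Il1f9, an interleukin gene, held 1237 to 1953 steps of the 28-day sum, against 504 to 660 steps in control skin. The list of wounded and stressed keratinocytes names the same gene by its other symbol, Il36g. Other genes of the list were at or near the lowest value: Ly6g had at most 2 steps in the knockout set and 5 in the P95H set, Ngp at most 2, and Camp at most 3. Retnlg had 4 to 14 steps in SRSF2-KO skin at 10 days, against 1 to 3 steps in control skin. The part of neutrophils in the stefin A levels was not tested.

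The 8 genes most like the cluster were sought among 12810 other genes with a mean of at least 50 steps in both whole-skin sets, by the smaller of the 2 correlations with the members' mean log2 level over the 12 and 14 libraries. Krt6b, a keratin of wounded and hyperproliferative epidermis, came first, with r = 0.974 in the knockout set and 0.964 in the P95H set, followed by Krt16, a wound keratin that pairs with keratin 6, and Sprr2a3, a cornified envelope precursor. Cxcr2, Arl5a, Serpinb3a, Lpo and Ccl22 completed the list, with a smaller r of 0.904 to 0.931. The libraries share group differences, so these values describe a pattern over groups. Among the members, Stfa1 and Stfa3 followed each other most closely in both sets (r = 0.942 in the knockout set and 0.962 in the P95H set), and Csta1 followed the others at r = 0.62 to 0.71 in the knockout set and 0.92 to 0.952 in the P95H set.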

How the data were processed

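RNA was sequenced from 38 libraries in 4 tables of 49585 genes each, and every value column was mapped to a sample. The members, gene lists and tests were chosen with earlier results of these data known. Per the submitters' processing notes, the authors used STAR, featureCounts and DESeq2 with no versions named, and no genome build is named. Per the labels' protocols, RNA was extracted with Trizol, and stranded total RNA kits with ribosomal RNA depletion were used, a different kit for the knockout and the P95H mice.

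The deposited values are normalised counts (a signal, not raw counts). In sorted cells they are whole reads divided by a library factor, and 100% of values came out whole within 0.0001. In whole skin each library's values are whole multiples of its smallest value, here called steps; a gene with no reads stands at 1 step, and the steps were analysed with the remaining library factor removed. Reads were estimated as steps above 1 divided by the value of a step. In SRSF2-P95H replicate 1 at 28 days a read is worth about 2.35 steps by that estimate.

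Genes with a mean of at least 10 were tested with limma 3.58.1 (R 4.3.3, trend on log2(value + 1), all groups of a table in the fit), with Benjamini-Hochberg adjustment over all genes tested and a threshold of 0.05. A gene counts as measured when it passed that mean. edgeR 4.0.16 was run on the recovered reads of sorted cells. The genes named are the members, their neighbours, the listed cystatins and proteases, the strongest called genes of the other lists and the 8 genes most like the members. Replicates are mice by their labels, and no 2 libraries of a group agreed within sampling noise. Intervals are 95% limma intervals. The steps were tested on simulated data. Other pseudocounts, filters, scalings, fits and left-out libraries were tried.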

Additional observations from a re-analysis of the deposited data

Results flagged for a closer look

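3 results differed between time points of the SRSF2-KO mice by a direct test of the difference. Csta1 was 1.29 higher in log2 at 10 days than at 4 days (adjusted p = 0.000176 by limma). Stfa2 was 2.48 higher in log2 at 10 days than at 4 days (adjusted p = 0.0391), with overlapping groups. Stfa1 was 3.14 higher in log2 at 12 days than at 10 days (adjusted p = 0.00233). No library lay far from the others in the 8 checks of a member within a group of 4 or 5 mice, where chance gives about 1 in 20.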

How the results depend on the processing

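Of 496 values of single members under other settings, 437 kept their direction and side of the threshold, 40 lost the call, 5 gained it and 14 turned direction. In SRSF2-KO skin at 4 days 0 members were called with no filter, with the replicate block, with deposited values and with only the 2 groups in the fit, and 0 to 1 with a library left out. The count was 0 to 4 at 10 days and 1 to 2 at 12 days with a library left out. From 4 to 10 days it was 1 with no filter, equal totals, the replicate block or only the 2 groups, and 1 to 3 with a library left out. From 10 to 12 days it was 2 with equal totals or only the 2 groups. With a library left out, it was 2 to 4 in SRSF2-P95H skin at either time and 0 to 1 in sorted SRSF2-KO cells. The causes were not tested.

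With equal totals the 12-minus-10-day change of Csta1 turned to 0.19. With a library left out it was -0.23 to 0.0139, turning without SRSF2-KO replicate 2 of either time (0.0087 at 10 days), and that of Stfa2 was -0.45 to 1.06, turning without replicate 3 at 10 days. The 28-minus-12-day difference in SRSF2-P95H effect ranged over -0.21 to 0.40 for Csta1 (-0.06 without replicate 2 at 28 days), -0.49 to 1.61 for Stfa2 and -0.87 to 0.28 for Stfa3, turning without replicate 1 at 12 days for Csta1 and Stfa2 and without replicate 2 at 12 days for Stfa3, which was 0.42 with deposited values. In sorted cells Stfa1 was -0.15 to 2.51 with a library left out, turning without SRSF2-KO replicate 1. After DMBA/TPA Stfa1 was then -0.70 to 0.33, turning without SRSF2-P95H replicate 1 or control replicate 2 (0.21), and 0.0176 by edgeR; Csta1 was -0.45 to 0.061, turning without control replicate 2. No turned value passed the test.

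The labels do not state that replicate numbers pair the mice. Deviations of same-numbered libraries correlated at -0.458 to 0.84 in knockout whole skin and -0.189 to 0.367 in P95H whole skin. In the knockout sort they correlated at 0.0578 to 0.19, and after DMBA/TPA at 0.0564 to 0.15. The value of 0.84 came from replicate 3 of control skin and of SRSF2-KO skin at 4 days. Whether some mice share a batch was not tested. With the replicate block, Csta1 lost its call at 4 days (adjusted p = 0.0544) and in SRSF2-P95H skin at 12 days (adjusted p = 0.157), and Stfa2 lost it from 4 to 10 days (adjusted p = 0.0555). Low counts limit what can be said of Stfa2l1 everywhere and of Stfa2 in sorted cells, where a library can hold 2 reads. Groups of 2 to 5 mice limit the rest.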
